A study of Gallus gallus with 6 samples.

Results

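The genes described are the platelet-derived growth factor (PDGF) receptors and ligands of the chicken, 7 of the 23873 genes in the deposited table. They were chosen by name, with exactly 1 row required for each: the receptor tyrosine kinases PDGFRA and PDGFRB, the receptor-like gene PDGFRL, and the ligand genes PDGFA, PDGFB, PDGFC and PDGFD. They were measured in 6 polyA RNA libraries made from primordial germ cells (PGCs), the cells of the early embryo that later form sperm and eggs, which had been taken from chicken embryonic blood into culture. The 3 undifferentiated libraries came from PGCs growing in suspension, and the 3 somatic differentiated libraries from PGCs that had become adherent, were freed of the suspended cells by aspiration and were grown for further weeks. Both groups shared a medium with chicken serum, heparin, human FGF2, the ROCK inhibitor H1152 and the myosin inhibitor blebbistatin. The labels list no PDGF among the supplements, and the PDGF content of the serum was not measured here. The question of the study was which pathways are switched on as PGCs convert to a somatic state.

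PDGFs are secreted dimers that bind a pair of receptor chains, bring them together and switch on their tyrosine kinase domains, from which Ras and MAP kinase, phosphoinositide 3-kinase and phospholipase C signalling starts. In vertebrate embryos PDGFRA is known from mesenchymal progenitors and neural crest derivatives, and PDGFRB from pericytes, smooth muscle cells and fibroblasts. Epithelial and endothelial cells are typical sources of the ligands, so that signalling often runs from one cell type to another.

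Expression is given in CPM, the number of reads assigned to a gene in each 1000000 reads of a library. Although the table is titled TPM, every value above 0 lay within 0.01 reads of a whole multiple of the same step for genes of any length, so no division by length is left in it. Levels are therefore compared between libraries for a gene, and sums or shares over several genes are in reads, which also depend on transcript length. The steps correspond to 57164320 to 65705049 assigned reads per library. Among the 12996 genes that averaged at least 1 CPM, the Pearson correlation of log2(CPM + 1) across genes, which are not independent replicates, was 0.955 to 0.986 within groups and 0.856 to 0.898 between them. With limma, all 9 germ cell marker genes, among them DDX4, DAZL and NANOG, were called lower in somatic differentiated cells, against 7.77% of all genes tested. With edgeR and with DESeq2, 8 were called lower, against 8.65% and 8.96%. The 9 markers summed to 2885 to 2973 CPM in undifferentiated and 630 to 1086 CPM in somatic differentiated libraries. Of the 8 fibroblast markers tested, limma called 7 higher, against 13.2% of all genes tested, and 0 lower, against 7.77%. The tested marker not called, FBLN1, was lower in every somatic differentiated library, with means of 36.9 ± 1.98 and 25.2 ± 7.67 CPM (SD, n = 3). The listed marker under the filter, TCF21, had 0 reads in each undifferentiated library and 15, 2 and 0 reads in somatic differentiated libraries 1 to 3. The 9 fibroblast markers listed summed to 298 to 393 and 1192 to 2575 CPM. These are bulk libraries, so more cells of a type and more RNA per cell cannot be told apart. The labels speak of PGC lines but do not tie libraries to lines or embryos, so that p-values measure the spread between these libraries.

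In somatic differentiated cells the PDGF genes moved in both directions. PDGFRB, PDGFRL, PDGFA and PDGFB rose, PDGFC fell, and PDGFRA and PDGFD did not pass the test. A gene was called when limma on log2(CPM + 1) gave a Benjamini-Hochberg adjusted p under 0.05 and a log2 change of at least 1 in either direction. By this rule 4 of the 7 genes were called higher, against 13.2% of all genes tested, and 1 was called lower, against 7.77%. All 7 passed the filter on low values, PDGFB through its level in somatic differentiated cells alone. Without overlap between groups, 6 genes were higher and 1 was lower in somatic differentiated cells, where 25% and 30.6% of all genes tested showed these patterns. For PDGFD, 1 of the 6, the gap between groups was only from 6.85 to 6.94 CPM. On the recovered reads edgeR called 4 of the 7 higher (16.9% of all genes) and 0 lower (8.65% of all genes). DESeq2 called 5 higher (18.1%) and 1 lower (8.96%). With edgeR 1 member, PDGFC, was lower at an unadjusted p under 0.05, a threshold for which the share of all genes was not counted. The median change of the 7 genes was 1.53 on the log2 scale, and that of all genes tested was -0.11.

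**Figure D1:**
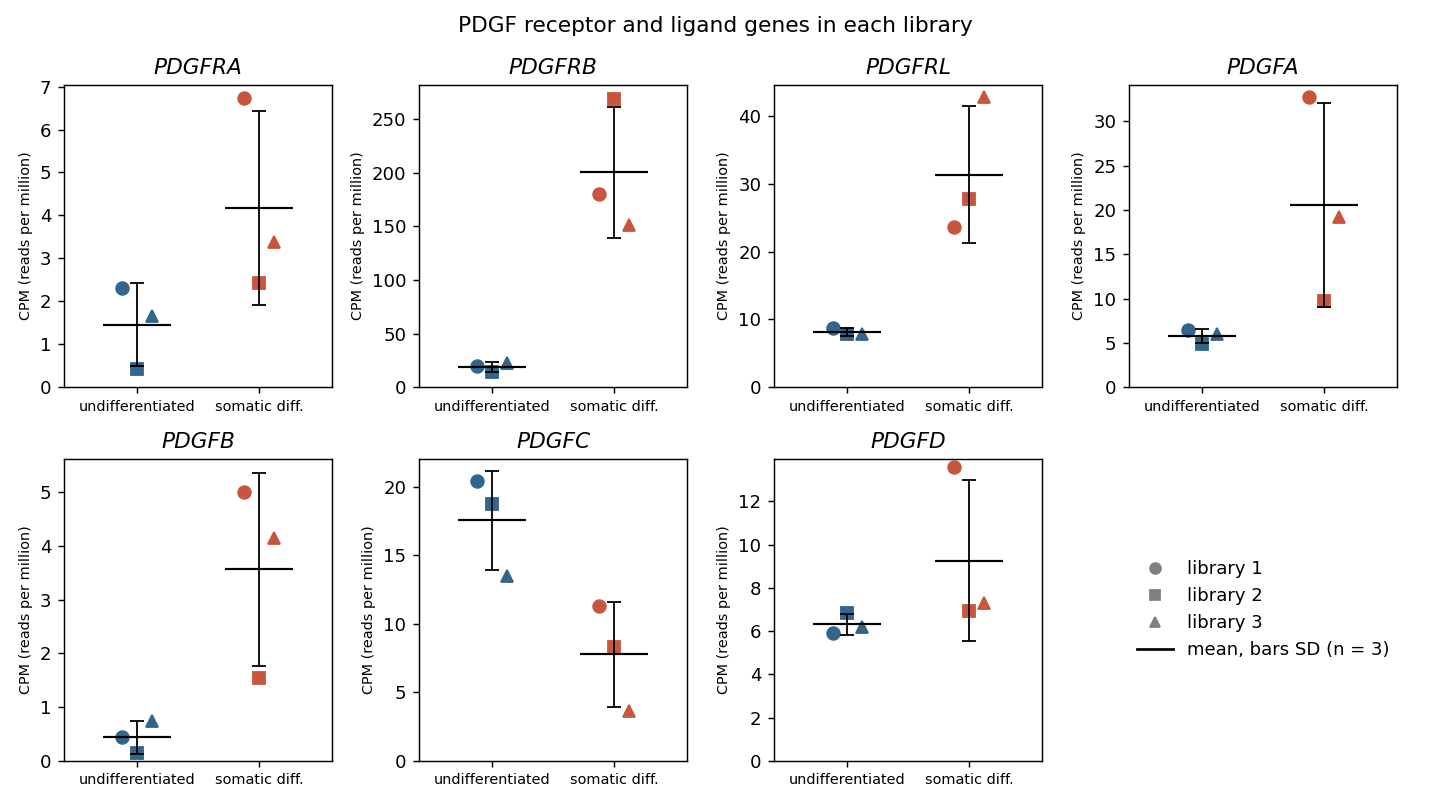
CPM (linear vertical axes, each starting at 0) of the 7 PDGF genes in the 3 undifferentiated (blue) and 3 somatic differentiated (red) libraries; symbols mark the library number, lines the mean and bars the SD. PDGFRB rose from 18.6 to 200.4 CPM, PDGFC fell from 17.6 to 7.77 CPM, and the somatic differentiated values of PDGFA, PDGFB, PDGFD and PDGFRA were highest in library 1 and lowest in library 2.

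PDGFRB encodes the receptor kinase that binds PDGF-BB and PDGF-DD, and it changed the most of the 7. The gene (ENSGALG00000030613) lies on the plus strand of chromosome 13, 13957973 to 13973578, in the coordinates of the table, for which the submitters' processing notes name the build GRCg6a. It measured 19.6, 13.7 and 22.6 CPM in undifferentiated libraries 1 to 3, and 180, 269 and 152 CPM in somatic differentiated libraries 1 to 3. Every somatic differentiated library was far above every undifferentiated library, and library 2 was the highest. The mean rose 10.8-fold, from 18.6 ± 4.56 to 200.4 ± 61.3 CPM (SD, n = 3). The log2 change was 3.35 (SE 0.26, limma adjusted p 0.000507), which placed PDGFRB at position 76 of 12996 genes ordered by increase. With any library left out the change stayed between 3.11 and 3.52 and the gene stayed called.

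PDGFRA encodes the receptor kinase that accepts PDGF-A, PDGF-B and PDGF-C chains. The gene (ENSGALG00000013929) lies on the minus strand of chromosome 4, 65398425 to 65431696. It measured 2.31, 0.411 and 1.65 CPM in undifferentiated libraries, from 132, 27 and 95 reads, and 6.72, 2.43 and 3.38 CPM in somatic differentiated libraries, from 408, 145 and 206 reads. The groups did not overlap, but somatic differentiated library 2 was only just above undifferentiated library 1: the exact 95% Poisson intervals, which cover counting error only, were 2.05 to 2.86 CPM and 1.93 to 2.74 CPM. The means were 1.46 ± 0.964 and 4.18 ± 2.25 CPM (SD, n = 3), and the log2 change of 1.08 (SE 0.43) had a limma adjusted p of 0.0837. It was not called here, and over the alternatives the adjusted p ranged from 0.0196 to 0.220. Median of ratios scaling (1.18, limma adjusted p 0.0426), array weights (1.03, limma adjusted p 0.0348) and DESeq2 on the recovered reads (1.69, adjusted p 0.0196) called it higher, while edgeR's quasi-likelihood test on the same reads gave 1.67 with an adjusted p of 0.0653. The change was 0.72 without undifferentiated library 2 and 0.74 without somatic differentiated library 1.

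The balance of the receptor kinases was followed as the share of PDGFRA in the summed CPM of both genes. Such a share also depends on transcript lengths, and the use of the 2 annotated PDGFRA transcripts was not measured. PDGFRA held 10.5%, 2.92% and 6.81% in undifferentiated libraries and 3.59%, 0.895% and 2.18% in somatic differentiated libraries. The values of the groups overlapped, with undifferentiated library 2 below somatic differentiated library 1. The means of 6.76% ± 3.81 and 2.22% ± 1.35 (SD, n = 3) differed by -4.54 percentage points, with an exact two-sided permutation p of 0.2. Without undifferentiated library 1 the difference was -2.65 points. The smallest p that 3 against 3 libraries allow is 0.1, so this test could not pass the threshold. The summed receptor kinase level was 21.9, 14.1 and 24.3 CPM in undifferentiated and 187, 272 and 155 CPM in somatic differentiated libraries (exact two-sided permutation p 0.1).

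PDGFRL encodes a secreted protein that resembles the ligand-binding part of the receptors and has no kinase domain, and in humans it was described as a candidate tumour suppressor. The gene (ENSGALG00000013617) lies on the minus strand of chromosome 4, 63002339 to 63021875. It measured 8.78, 7.85 and 7.80 CPM in undifferentiated and 23.6, 27.7 and 42.8 CPM in somatic differentiated libraries. The undifferentiated libraries lay close together, and all somatic differentiated libraries were above them, library 3 the furthest. The mean rose 3.85-fold, from 8.14 ± 0.553 to 31.4 ± 10.1 CPM (SD, n = 3; log2 change 1.78, SE 0.24, limma adjusted p 0.00252). It was called with any library left out, with changes of 1.54 to 1.96. PDGFRL and PDGFRB were the members called under every alternative run.

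PDGFA encodes a chain that forms PDGF-AA and PDGF-AB dimers and acts mainly through PDGFRA. The gene (ENSGALG00000003642, chromosome 14, minus strand, 2394173 to 2416757) measured 6.44, 4.84 and 6.005 CPM in undifferentiated and 32.7, 9.74 and 19.2 CPM in somatic differentiated libraries. All somatic differentiated values were higher, but they differed widely among themselves, with library 1 the highest and library 2 the lowest. The mean rose 3.57-fold, from 5.76 ± 0.826 to 20.6 ± 11.5 CPM (SD, n = 3; log2 change 1.53, SE 0.40, limma adjusted p 0.0227). Leaving out undifferentiated library 1, 2 or 3 ended the call, at changes of 1.603, 1.43 and 1.56, as did leaving out somatic differentiated library 1 (1.13) or 3 (1.501). In these fits the limma adjusted p was 0.0507 to 0.0669. The call was kept by edgeR (1.93, adjusted p 0.0104) and DESeq2 (1.94, adjusted p 1.96e-05) on the recovered reads.

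PDGFB encodes the chain that binds both receptor kinases, and in mammals its release by endothelial cells draws PDGFRB-bearing pericytes to vessels. The gene (ENSGALG00000012178, chromosome 1, plus strand, 50720146 to 50737226) measured 0.437, 0.137 and 0.748 CPM in undifferentiated libraries, from 25, 9 and 43 reads. In somatic differentiated libraries it measured 4.99, 1.54 and 4.15 CPM, from 303, 92 and 253 reads. The groups did not overlap, and the exact 95% Poisson interval of somatic differentiated library 2, 1.24 to 1.89 CPM, lay above that of undifferentiated library 3, 0.542 to 1.01 CPM. The mean rose 8.08-fold, from 0.441 ± 0.306 to 3.56 ± 1.80 CPM (SD, n = 3). The log2 change on the log2(CPM + 1) scale, 1.59 (SE 0.37, limma adjusted p 0.0149), understates the change of so low a gene. It was 3.17 with edgeR (adjusted p 0.0108) and 0.63 with a pseudocount of 5, below the minimum change.

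PDGFC and PDGFD encode the ligands with an N-terminal CUB domain, which proteases must remove before the growth factor part can bind a receptor. PDGFC acts mainly through PDGFRA. The gene (ENSGALG00000009378, chromosome 4, plus strand, 21202944 to 21318742) measured 20.4, 18.8 and 13.5 CPM in undifferentiated and 11.3, 8.29 and 3.67 CPM in somatic differentiated libraries. All somatic differentiated values were lower, and library 3 was the lowest in either group. The mean fell to 44.2% of its level, from 17.6 ± 3.61 to 7.77 ± 3.86 CPM (SD, n = 3; log2 change -1.17, SE 0.38, limma adjusted p 0.0441).

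Removal of undifferentiated library 1 (-1.06), 2 (-1.12) or 3 (-1.34) or of somatic differentiated library 2 (-1.27) or 3 (-0.78) ended the call of PDGFC. It was also lost with edgeR on the recovered reads (-1.13, adjusted p 0.0565) and kept with DESeq2 (-1.11, adjusted p 0.0178). The long noncoding RNA ENSGALG00000038238 is annotated on the opposite strand over 479 bases at the start of PDGFC. It measured 3.53, 5.49 and 2.92 CPM in undifferentiated and 1.24, 1.44 and 0.459 CPM in somatic differentiated libraries. Whether reads were counted by strand is not given in the sources used here, so reads of the overlapping stretch cannot be assigned to either gene.

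PDGFD acts mainly through PDGFRB. The gene (ENSGALG00000017179, chromosome 1, plus strand, 183232405 to 183372535) measured 5.91, 6.85 and 6.18 CPM in undifferentiated and 13.6, 6.94 and 7.28 CPM in somatic differentiated libraries. Somatic differentiated library 1 stood apart, and the other libraries of that group were just above the undifferentiated range. The means were 6.31 ± 0.482 and 9.27 ± 3.74 CPM (SD, n = 3), and the log2 change of 0.43 (SE 0.28) gave an adjusted p of 0.251 with limma. The change was 0.15 without somatic differentiated library 1, and over the alternatives the adjusted p ranged from 0.0477 to 0.649.

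**Figure D2:**
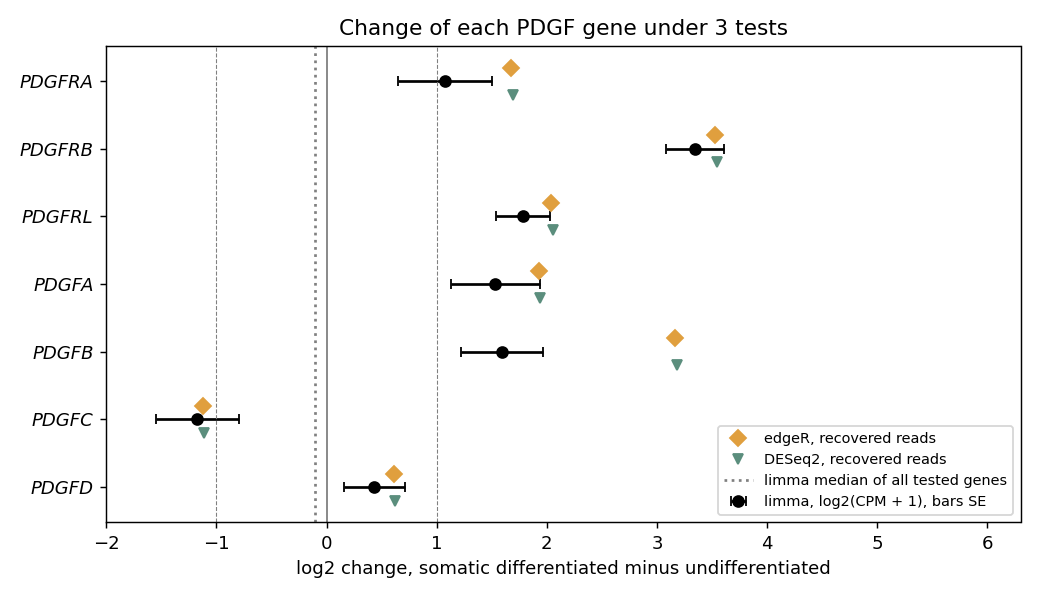
Log2 change of each PDGF gene, somatic differentiated minus undifferentiated (horizontal axis), from limma on log2(CPM + 1) with SE bars and from edgeR and DESeq2 on the recovered reads; dashed lines mark changes of 1 in each direction and the dotted line the median of all genes tested, -0.11. The estimates differ most for PDGFB, at 1.59 with limma and 3.17 with edgeR, and PDGFC is the gene left of 0 in all of them.

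The 4 ligand genes together gave 33.2, 30.6 and 26.4 CPM in undifferentiated and 62.6, 26.5 and 34.4 CPM in somatic differentiated libraries. The groups overlapped. The means of 30.1 ± 3.41 and 41.2 ± 18.999 CPM (SD, n = 3) differed by 11.1 CPM, with an exact two-sided permutation p of 0.4, and by 0.352 CPM without somatic differentiated library 1. Within that sum PDGFC was the ligand gene with the most reads in each undifferentiated library, and PDGFA the one with the most in each somatic differentiated library. Read numbers also reflect transcript length, so this does not order the ligands by molecules.

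The somatic differentiated libraries also differed among themselves in their PDGF values. Of the 7 genes, 5 were highest in somatic differentiated library 1 (PDGFRA, PDGFA, PDGFB, PDGFC and PDGFD), while PDGFRB was highest in library 2 and PDGFRL in library 3. PDGFRA, PDGFA, PDGFB and PDGFD were lowest in library 2. The share of all genes with these orders was not counted, so the orders are not given as a trait of the PDGF genes. Marker lists of cell types known for PDGF receptors also differed between these libraries. The 10 mural cell markers listed summed to 242, 53.1 and 100.2 CPM in somatic differentiated libraries 1 to 3 and to 28.8 to 48.1 CPM in undifferentiated libraries. Of the 6 tested, limma called 1 higher, MCAM, against 13.2% of all genes. EdgeR called 2 higher (16.9% of all genes) and DESeq2 3 (18.1%). ANPEP, KCNJ8 and DES were called by none of these tests, at limma log2 changes of 0.43, -0.07 and -0.08. ACTA2, smooth muscle actin, measured 150, 8.55 and 18.2 CPM (adjusted p 0.0754 with limma and 0.0260 with edgeR). The pericyte marker RGS5 was at or under 0.230 CPM in all 6 libraries. The 4 oligodendrocyte precursor markers listed included SOX10 and OLIG2. They summed to 81.6, 4.39 and 16.6 CPM in somatic differentiated libraries and to 3.42 to 12.7 CPM in undifferentiated libraries. Limma and edgeR called 0 of 4 in either direction, where 13.2% and 16.9% of all genes were higher and 7.77% and 8.65% lower. DESeq2 called 3 higher, against 18.1% of all genes. NKX2-2, 1 of these 3, passed the filter on low values through its somatic differentiated level alone, with means of 0.515 and 1.94 CPM. At an unadjusted p under 0.05 limma had 0 higher and 1 lower, and edgeR 3 higher and 1 lower. The share of all genes at that threshold was not counted.

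Markers of the blood and vessel cells that could accompany embryonic blood PGCs were examined because thrombocytes and endothelium are sources of PDGF-B. The 8 endothelial markers listed summed to 12.6 to 24.9 CPM in undifferentiated and to 55.4, 107 and 64.4 CPM in somatic differentiated libraries. Of the 5 tested, limma called CDH5 and ERG higher (13.2% of all genes) and KDR lower (7.77% of all genes). CDH5 alone measured 12.5, 91.0 and 31.9 CPM in somatic differentiated libraries 1 to 3. PECAM1 had means of 5.90 ± 0.841 and 6.50 ± 3.97 CPM (SD, n = 3), at a log2 change of -0.02. TEK and TIE1, under the filter, had lower means, from 0.519 to 0.188 and from 0.145 to 0.0387 CPM. CLDN5 was not called, with means of 2.09 and 4.76 CPM, while VWF was at or under 0.115 CPM in all libraries. The 5 thrombocyte markers listed summed to 6.11 to 8.66 CPM in undifferentiated and to 16.8, 3.86 and 23.2 CPM in somatic differentiated libraries. ITGA2B was called lower, and GP9 was at or under 0.198 CPM. ITGB3, an integrin subunit that other cell types also carry, measured 2.10, 1.07 and 0.992 CPM in undifferentiated and 15.01, 1.79 and 19.2 CPM in somatic differentiated libraries (adjusted p 0.0589 with limma and 0.0191 with edgeR). The 6 leukocyte markers summed to 9.21 to 11.04 CPM and to 10.9 to 34.3 CPM, with SPI1 at or under 0.066 CPM. In that list LAPTM5 measured 0.875, 0.441 and 0.766 CPM in undifferentiated and 17.7, 1.49 and 2.76 CPM in somatic differentiated libraries (adjusted p 0.0883 with limma and 0.0228 with edgeR). LAPTM5 passed the filter on low values through its somatic differentiated level alone. CSF1R, described below, was also higher in every somatic differentiated library. Of the 4 leukocyte markers tested, limma called 0 in either direction, where 13.2% of all genes were higher and 7.77% lower. EdgeR and DESeq2 each called 1 higher, LAPTM5, against 16.9% and 18.1% of all genes. LCP1 had a lower mean in somatic differentiated cells, 2.41 against 3.84 CPM, and was not called. PTPRC and CD74 were not called either, at limma log2 changes of 0.18 and 0.38. The 5 erythroid markers listed summed to at most 0.787 and 2.06 CPM, and HBA1 was listed at 0 throughout. The globin HBBA had 0 reads in each undifferentiated library and 104, 103 and 108 reads, 1.71 to 1.77 CPM, in somatic differentiated libraries. The part of these cell types in the PDGF values was not tested.

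**Figure D3:**
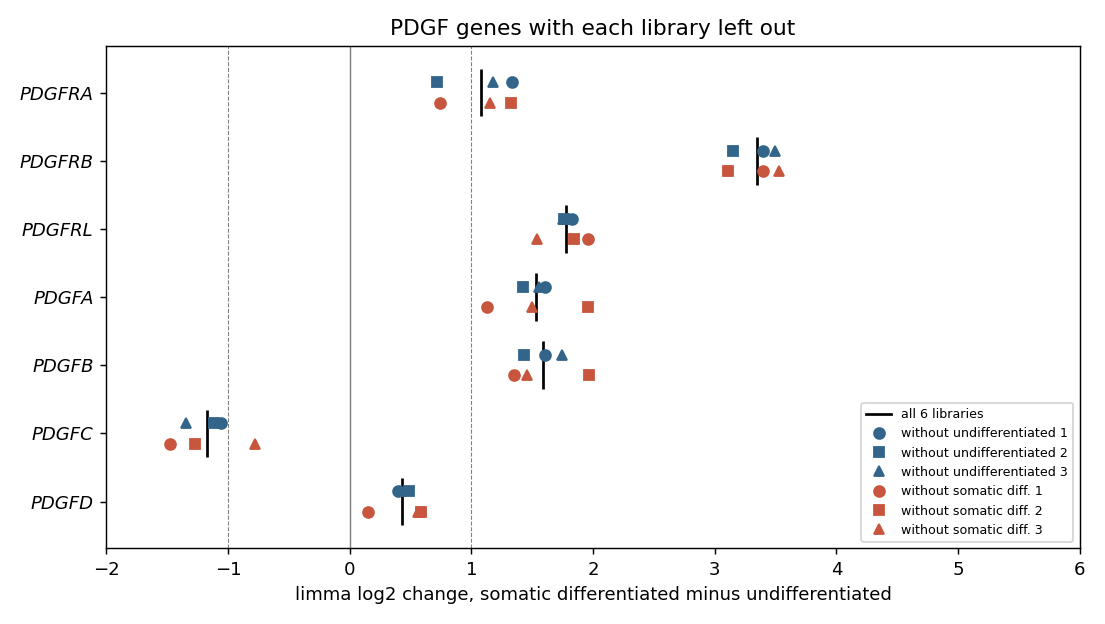
Limma log2 change of each PDGF gene (horizontal axis, somatic differentiated minus undifferentiated) with all 6 libraries (black line) and with each library left out (blue for undifferentiated, red for somatic differentiated; symbols give the library number). PDGFRB stayed between 3.11 and 3.52, while PDGFA ranged from 1.13 to 1.96 and PDGFC from -1.48 to -0.78.

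Proteins that prepare PDGFs for their receptors, hold them in the matrix or bind them at the cell surface formed the first of the pathway lists. Of 11 tested, 5 were called higher, against 13.2% of all genes, and 0 lower, against 7.77%, with a median log2 change of 0.91. Without undifferentiated library 2, 3 were called lower, and with array weights 2. On the recovered reads edgeR and DESeq2 called 0 lower, against 8.65% and 8.96% of all genes. At an unadjusted p under 0.05 limma had 1 lower, and edgeR and DESeq2 had 2 each. The share of all genes at that threshold was not counted. PLAU, the urokinase that in humans activates PDGF-D, rose most. It passed the filter on low values through its somatic differentiated level alone, and measured 1.19, 0.533 and 1.03 CPM in undifferentiated and 10.8, 11.4 and 12.9 CPM in somatic differentiated libraries (log2 change 2.74, SE 0.23, limma adjusted p 0.000561). PLAT, the tissue plasminogen activator that cleaves PDGF-C in mammals, rose from 2.72 ± 1.14 to 12.3 ± 2.55 CPM (SD, n = 3; 1.87, limma adjusted p 0.00343). SPARC, a matrix protein that binds PDGF dimers holding a B chain, rose from 304 ± 22.6 to 1945 ± 218 CPM (SD, n = 3; 2.67, limma adjusted p 0.000146). PDGFC, whose protein PLAT activates, and PLAT itself were thus called in opposite directions by limma, and for PLAU and PDGFD only PLAU passed the test. The call of PDGFC (limma adjusted p 0.0441) was lost with edgeR (adjusted p 0.0565). It was also lost on removal of any library but somatic differentiated library 1. ST14, the protease matriptase, which also cleaves PDGF-D, measured 16.7 ± 5.52 and 14.7 ± 8.79 CPM (SD, n = 3; limma adjusted p 0.634).

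Of 29 genes tested in the signalling chain behind the receptors, 2 were called higher, against 13.2% of all genes, 1 lower, against 7.77%, and 26 were not called. The median log2 change was 0.21. Without undifferentiated library 2 or somatic differentiated library 1 or 2, 1 was called higher. PIK3R1, the regulatory subunit that docks phosphoinositide 3-kinase on phosphorylated receptors, rose from 4.91 ± 0.919 to 18.4 ± 5.17 CPM (SD, n = 3; log2 change 1.70, limma adjusted p 0.00343). PLCG1, the phospholipase C that binds activated PDGF receptors, fell from 71.9 ± 19.3 to 24.8 ± 4.37 CPM (SD, n = 3; -1.48, limma adjusted p 0.00395). MAPK3, a terminal MAP kinase, was called higher at 1.01 (limma adjusted p 0.0308). It fell below the minimum change or the threshold without undifferentiated library 2 (0.67) and without somatic differentiated library 1, 2 or 3 (0.96, 0.97 and 1.12).

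Negative regulators of the receptors gave 4 called higher (13.2% of all genes) and 0 lower (7.77% of all genes) of 11 tested, with a median of 0.56. Without undifferentiated library 2, 2 were called lower, and with array weights 1. Leaving out undifferentiated library 3 or somatic differentiated library 1 gave 2 called higher. EdgeR and DESeq2 called 0 lower too, against 8.65% and 8.96% of all genes. At an unadjusted p under 0.05 limma had 0 lower, and edgeR and DESeq2 had 1 each. The share of all genes at that threshold was not counted. CAV1, the caveolar coat protein that holds receptors in an inactive state, rose from 15.8 ± 4.01 to 94.9 ± 51.9 CPM (SD, n = 3; log2 change 2.37, limma adjusted p 0.00641). SOCS3, a suppressor of cytokine signalling, measured 1.26, 1.08 and 0.940 CPM in undifferentiated and 14.3, 3.62 and 13.2 CPM in somatic differentiated libraries (2.26, limma adjusted p 0.00925). Its somatic differentiated values were lowest in library 2. LRIG1, a membrane protein that limits receptor kinases, was called higher at 1.77 (limma adjusted p 0.0264). Removing undifferentiated library 3 (1.93) or somatic differentiated library 1 (1.56) or 2 (1.55) ended its call. The list had 2 calls, not 4, when undifferentiated library 3 or somatic differentiated library 1 was removed. The ubiquitin ligase CBL, which marks activated PDGF receptors for degradation, measured 112, 41.3 and 106 CPM in undifferentiated and 43.5, 56.8 and 44.8 CPM in somatic differentiated libraries. These values overlapped, with undifferentiated library 2 the lowest.

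Immediate early and related genes that growth factors induce gave 6 called higher (13.2% of all genes) and 0 lower (7.77% of all genes) of 11 tested, with a median of 1.24. At an unadjusted p under 0.05 limma, edgeR and DESeq2 each had 9 higher and 0 lower. The share of all genes at that looser threshold was not counted. In limma 5185 of 12996 genes had an adjusted p under 0.05 in either direction. EGR1, the early growth response factor, rose from 25.8 ± 1.58 to 354 ± 102 CPM (SD, n = 3; log2 change 3.69, limma adjusted p 0.000262). FOS rose from 2.92 ± 0.486 to 22.4 ± 6.37 CPM (SD, n = 3; 2.55, limma adjusted p 0.000993) and PHLDA1 from 4.92 ± 1.96 to 32.2 ± 14.6 CPM (SD, n = 3; 2.45, limma adjusted p 0.00343). SRF, the transcription factor through which serum and PDGF act on FOS, measured 56.9 ± 4.83 and 48.0 ± 1.10 CPM (SD, n = 3; limma adjusted p 0.174).

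**Figure D4:**
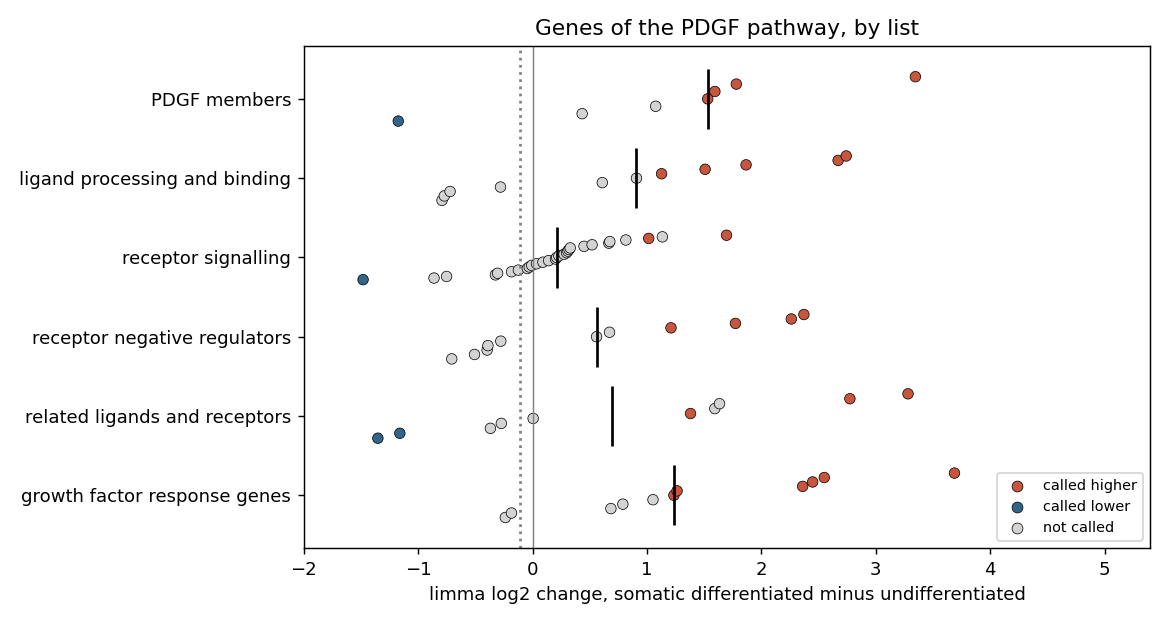
Limma log2 change (horizontal axis, somatic differentiated minus undifferentiated) of the genes tested in the PDGF list and 5 related lists; each point is 1 gene, red called higher, blue called lower and grey not called, black bars are list medians and the dotted line is the median of all genes, -0.11. The medians run from 0.21 for receptor signalling to 1.53 for the PDGF genes.

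The list of related ligands and receptors held the vascular endothelial growth factors, stem cell factor and CSF1 with their receptors. Of 10 tested, 3 were called higher (13.2% of all genes) and 2 lower (7.77% of all genes). With edgeR 5 were higher (16.9% of all genes) and 2 lower (8.65% of all genes). VEGFD, 1 of these 5, passed the filter on low values through its somatic differentiated level alone, with means of 0.434 and 4.99 CPM. In somatic differentiated libraries 1 to 3 VEGFD measured 11.7, 1.29 and 1.92 CPM. With any 1 library left out, limma called 0 or 1 lower, and without somatic differentiated library 2 it called 5 higher. FLT1, a receptor for VEGFA, rose from 3.35 ± 0.635 to 41.4 ± 7.15 CPM (SD, n = 3; log2 change 3.28, limma adjusted p 0.000302). CSF1, a ligand of the receptor CSF1R, rose from 3.12 ± 0.337 to 29.98 ± 17.7 CPM (SD, n = 3; 2.77, limma adjusted p 0.00242). VEGFA was called higher at 1.38 (limma adjusted p 0.0289), a call that ended on removal of undifferentiated library 2 (1.21) or 3 (1.35) or of somatic differentiated library 1 (1.37) or 3 (1.02). KITLG, the ligand of KIT, measured 1.46 ± 0.822 and 0.964 ± 0.295 CPM (SD, n = 3; limma adjusted p 0.526).

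The receptor kinase genes of the chicken lie in clusters, as in mammals. PDGFRA is followed at 76.6 kb by KIT, the stem cell factor receptor of germ cells, and at 185 kb by KDR, the main VEGF receptor of endothelium. Within this cluster KIT fell from 59.96 ± 9.98 to 25.6 ± 14.8 CPM (SD, n = 3; log2 change -1.35, limma adjusted p 0.0395). KDR fell from 4.91 ± 2.50 to 1.49 ± 0.416 CPM (SD, n = 3; -1.16, limma adjusted p 0.0454). PDGFRA, with 2.31, 0.411 and 1.65 CPM before and 6.72, 2.43 and 3.38 CPM after, was the cluster gene with higher values in somatic differentiated cells. KIT was called neither on removal of undifferentiated library 1 (-1.23), 2 (-1.47) or 3 (-1.36) nor on removal of somatic differentiated library 2 (-1.41) or 3 (-0.88). For KDR the same held of undifferentiated library 1 (-0.88) or 3 (-1.05) and of any somatic differentiated library, at -1.16, -1.04 and -1.28. On the other side of PDGFRA, 29.1 kb away, the homeobox gene GSX2, chosen after its values were seen, measured 1.82, 2.07 and 1.95 CPM in undifferentiated and 0.0989, 0.0503 and 0.164 CPM in somatic differentiated libraries.

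PDGFRB is followed on the same strand, after 6.48 kb, by CSF1R, the receptor of CSF1. CSF1R measured 0.0875, 0.137 and 0.0870 CPM in undifferentiated libraries, from 5, 9 and 5 reads, and 1.10, 2.01 and 1.51 CPM in somatic differentiated libraries, from 67, 120 and 92 reads. Its mean was below the filter of 1 CPM, so the tests with that filter left it out. As for PDGFRB, all somatic differentiated values were above all undifferentiated values and library 2 was the highest.

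Likeness to a PDGF gene was measured as the root mean square difference between profiles of log2(CPM + 1) over the 6 libraries, each minus its own mean. The comparison ran over genes with a unique symbol and a mean of at least 10 CPM, of which there were 7875 beside PDGFRB. CHST8, ANGPTL2, WNT5A, HPCAL1 and B3GAT1L, named below, were under 10 CPM in each undifferentiated library. They passed that filter through their somatic differentiated level alone. CDR2L was under 10 CPM in undifferentiated libraries 2 and 3. The genes nearest to PDGFRB were SCG2 (0.161), CHST8 (0.203) and ANGPTL2 (0.217). SCG2, a precursor of secreted neuropeptides, measured 59.6, 44.2 and 84.6 CPM in undifferentiated and 598, 688 and 511 CPM in somatic differentiated libraries, highest in library 2 as was PDGFRB. Nearest to PDGFRA were PLIN2 (0.168), ITPKB (0.170) and CDR2L (0.176). At the low CPM of PDGFRA the added 1 compresses its profile, with a log2 change of 1.08 by limma and 1.67 by edgeR. Nearest to PDGFA were WNT5A (0.194), HPCAL1 (0.207) and B3GAT1L (0.209). WNT5A, a secreted Wnt ligand, measured 9.73, 4.84 and 6.40 CPM in undifferentiated and 43.8, 10.6 and 20.6 CPM in somatic differentiated libraries. Nearest to PDGFC were COA8 (0.200), CFC1 (0.224) and FAM49A (0.226). CFC1, a relative of the Nodal co-receptor Cripto, measured 97.8, 135 and 100 CPM in undifferentiated and 75.7, 68.2 and 27.6 CPM in somatic differentiated libraries, lowest in library 3 as was PDGFC. The nearest genes were chosen by their profiles over these same libraries, so the shared library orders are not separate results.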

How the data were processed

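The authors deposited 1 table of per-gene values for 6 libraries, titled as TPM from RSEM. Per the submitters' processing notes the tools were FastQC 0.11.9, Trimmomatic 0.39, Trim Galore 0.6.6, cutadapt 3.1, STAR 2.7.3a and RSEM 1.3.1 with build GRCg6a; no role or order is stated for them. The deposited values behaved as CPM: 100% of values above 0 in each library came out whole (within 0.01 reads) in units of 1 read. The tests planned for TPM were run on CPM.

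limma 3.58.1 (R 4.3.3) with a variance trend was fitted to log2(CPM + 1) for 12996 genes with a mean of at least 1 CPM, two-sided, without covariates. On the recovered reads edgeR 4.0.16 called 3314 genes and DESeq2 1.42.0 called 3518, against 2731 with limma; these tests were added after the table was seen. Sums and shares were compared by exact permutation over libraries. Tables used pandas 2.3.3 under Python 3.11.15 with numpy 2.4.6; matplotlib 3.10.9 drew the plots. On simulated counts for this comparison (12996 genes, 200 changed by 2 on the log2 scale, 5 runs), limma recovered 96% to 99% of them with 1 to 5 false calls. That simulation drew independent genes, with the same setting of the spread for all genes and libraries. Its change of 2 was larger than the limma change of every PDGF gene but PDGFRB. The recovery therefore does not measure how reliably these genes were called.

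The members and lists were chosen with earlier results of these data known. Named were all members, at most the 3 largest called changes of each list in each direction, KIT, KITLG, VEGFA, PLAU, PLAT and the 3 nearest profiles; other list genes were named as examples after their values were seen. Symbols absent from the table were sought as synonyms in a RefSeq gene table of build GRCg7b. Of the list genes, those not found were not used. Columns of other samples numbered 0.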

Additional observations from a re-analysis of the deposited data

How the results depend on the processing

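Alternatives changed the pseudocount, filter, scaling, variance trend, library weights and test, added the replicate number as a block, or left out each library. No change of a PDGF gene, and none of the 3 sums and shares, reversed its sign in any of them. PDGFRA became called with median of ratios scaling (1.18), array weights (1.03), the replicate block (1.08, limma adjusted p 0.0287) and DESeq2 (1.69). PDGFB was below the minimum change with a pseudocount of 5 (0.63). PDGFC lost its call with a pseudocount of 5 (-0.86), no filter (-1.17, limma adjusted p 0.0713), array weights (-0.79), edgeR (-1.13) and edgeR without a filter (-1.11); in these settings, where PDGFC was the member that had been lower, 0 members were called lower. With a pseudocount of 5, 529 genes were called lower, against 1010. Among the lists, the related ligands and receptors called higher numbered 6 with edgeR without a filter and 5 with edgeR, DESeq2 or array weights and without somatic differentiated library 2, against 3, and those called lower ranged from 0 to 2.

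With single libraries left out, log2 changes ranged from 0.72 to 1.33 for PDGFRA, 3.11 to 3.52 for PDGFRB, 1.54 to 1.96 for PDGFRL, 1.13 to 1.96 for PDGFA, 1.35 to 1.97 for PDGFB, -1.48 to -0.78 for PDGFC and 0.15 to 0.59 for PDGFD. Members called higher numbered 3 to 4 and members called lower 0 to 1, while 1412 to 1682 of all genes were called higher and 761 to 1463 lower. Without undifferentiated library 2, 49.1% of calls were higher, against 63%. Median of ratios scaling shifted the median of all genes by 0.11 and gave 71.6% higher calls; PDGFRB was then at 3.46.

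The replicate numbers do not pair the libraries by any label. Deviations of same-numbered libraries correlated across genes at 0.192, 0.0131 and 0.140. The block moved the calls from 2731 to 2786. With 3 sign changes the smallest p it allows for the sums is 0.25, and it gave 0.25, 0.5 and 0.25 for the receptor sum, the ligand sum and the PDGFRA share. Depth limits PDGFB in undifferentiated cells, where 9 to 43 reads stand behind each value.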
